A study of Arabidopsis thaliana with 72 samples.

Results

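Among the Ψ sites listed for *Arabidopsis thaliana* tissues, 741 sites on chromosomes 1 to 5 had an A directly before and a C directly after the modified U (AΨC). They were chosen by the stated sequence alone: of the 7 characters printed for each site, the modified U stands in the middle, and the sites with A before it and C after it were taken. They made up 8.95% (95% Wilson interval 8.36 to 9.59) of the 8275 listed nuclear sites, out of 8512 sites in the whole list. By comparison, 549 nuclear sites read GΨC, 1877 read CΨC and 946 read UΨC.

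The study mapped Ψ in poly(A)-tailed RNA of wild-type Col-0 plants in 9 tissues. These were flower, silique, cauline leaf and stem collected after flowering, mature dry seed, seedling at 7 days, rosetta leaf at 30 days, and shoot and root at 14 days. BID-seq libraries had been made with bisulfite treatment (56 libraries, 5 to 7 per tissue) or without it (16 input libraries, 1 or 2 per tissue). Each tissue is represented by 1 pooled Ψ fraction per site, so that no error between libraries can be given for any fraction, and the number of reads behind a fraction is unknown. Each marker gene was highest in a tissue for which it had been chosen. The 2 seed storage protein genes and an oleosin gene were highest in seed (5027 to 6827 TPM). The 4 floral identity genes were highest in flower, the 3 fruit and ovule genes in silique and the 3 secondary wall cellulose synthases in stem. The 3 root genes were highest in root, but 2 of them by little. AT5G43350 stood at 92.6 TPM in root and 90.8 TPM in seedling, and AT3G09260 at 2024 TPM and 1936 TPM. The 3 photosynthesis genes, chosen for rosetta leaf, cauline leaf, shoot and seedling together, were highest in rosetta leaf and do not tell these tissues apart.

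Ψ is an isomer of U in which the base is bound to the sugar through carbon instead of nitrogen. It is made by pseudouridine synthases, either stand-alone enzymes that recognise a sequence or fold of the RNA, or a ribonucleoprotein guided by a box H/ACA small RNA, and it is abundant in rRNA, tRNA and spliceosomal RNA as well as present in mRNA. In BID-seq, bisulfite forms an adduct with Ψ that reverse transcriptase skips, and the share of reads with a gap at the U is converted to a fraction. As the U of AΨC has no U on either side, such a gap has a single possible position. Below, a call means that the filter of the authors accepted the site in that tissue. A fraction is also listed for most sites in tissues where they were not called.

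The AΨC sites fell mostly into a single longer sequence. A G stood before the A at 641 of the 741 sites (86.5%, 83.9 to 88.8) and a G after the C at 618 (83.4%, 80.6 to 85.9). The 5 bases GAΨCG were found at 579 sites (78.1%), and 509 of these continued with a second G (GAΨCGG). The base before GAΨCGG was U at 177 sites, C at 156, A at 135 and G at 41. The division into the 509 GAΨCGG sites and the 232 other AΨC sites was made after the sequences had been examined. It is used below because both sets differed in fraction and in the kinds of RNA they hold.

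Behind a stretch of random bases, the 3′ adapter that the library protocol ligates to the RNA fragments also holds the sequence GAUCGG, and the 5′ adapter of the same protocol ends in GAUC. The windows below show the adapters and the sites on which the results turn, 5′ to 3′ and with 10 bases on each side of the modified U, written as T. In the adapters, capitals mark the A, the T or U and the C to which the sites were aligned. In the site windows, capitals mark the unbroken run of letters around the modified T that is the same in the 3′ adapter, and at least the ATC itself. Positions are those of TAIR10, with sequence from RefSeq TAIR10.1.
3′ adapter: agATCggaagagcacacgtct
5′ adapter: guucagaguucuacaguccgacgAUC
UBC1 (chr1:4928549-4928569, minus strand): cctgaatcGATCGGAAaactt
AT4G09830 (chr4:6188903-6188923, plus strand): atgaggtAGATCGGActgttt
BIP1 (chr5:10542781-10542801, minus strand): aagagattGATCGGgcgaaag
VPS25 (chr4:10407666-10407686, minus strand): aagggattGATCGGAcgattc
LHCB4.1 (chr5:209402-209422, plus strand): ggagacgtGATCGGAAcccgt
UBQ5 (chr3:23037538-23037558, plus strand): gtcattttGATCGccattact
FAD2 (chr3:3861615-3861635, minus strand): aagaaagcaATCccgccgcat
TCTP (chr3:5670806-5670826, minus strand): cacttcagaATCccctcgtcg
LHCB2.2 (chr2:1800106-1800126, minus strand): atctgtctaATCaccaaatgc
LHCB2.1 (chr2:1824113-1824133, minus strand): atatgtctaATCaccaaattc
ACP4 (chr4:12870375-12870395, plus strand): ctgttatttATCaggttttaa
RS2Z32 (chr3:19834866-19834886, minus strand): tctctgttcATCagtcgatcg
U3D (chr5:21945577-21945597, minus strand): ttgaacagGATCtgttctata
AT1G09800 (chr1:3180664-3180684, minus strand): cagtttaatATCtgatatgtg
AT2G01008 (chr2:1218-1238, plus strand): tgaaaatctATCGGgttcgag
AT2G01010 (chr2:4698-4718, plus strand): tcgaagacGATCagataccgt

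How many of the listed sites share letters with the 3′ adapter was set against how often the same letters occur in the transcripts. The representative transcripts of 13881 protein-coding genes with a mean level of at least 10 TPM were searched for AUC. Of the 4200 that read GAUCGG, 484 were listed sites (11.5%, 10.6 to 12.5). Of the other 454466, 165 were listed (0.0363%, 0.0312 to 0.0423).

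With G before the A, the listed share rose with each letter from 4 to 7 shared letters, as the plot of the listed share by shared letters shows. AUC after a base other than G and not followed by G was listed in 0.0110% of its 290832 occurrences. GAUC not followed by G was listed in 0.0480% (0.0361 to 0.0638), GAUCG not followed by a second G in 0.497% (0.391 to 0.631) and GAUCGG not followed by A in 8.38% (7.34 to 9.54). With the next adapter letter, A, the share was 17.2% (15.2 to 19.5 for GAUCGGA without a further A), and for longer runs it lay between 8.97% and 13.5%, with intervals that overlap each other. Where the base before the A was not G, the share was lower but rose as well. It went from 0.0110% (0.00779 to 0.0155) for AUC to 0.0573% (0.0223 to 0.147) for AUCGG. It was 0.195% (0.0896 to 0.426) for AUCGGA and 0.370% (0.144 to 0.948) for AUCGGAA. For longer runs 0 of 215 and 0 of 147 were listed, which allows up to 1.76% and 2.55%. These intervals cover counting error only.

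**Figure D1:**
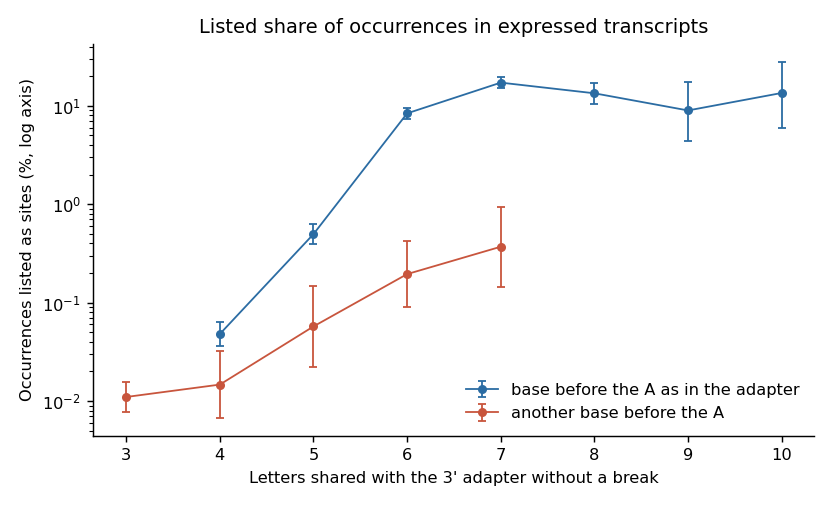
Share of AUC occurrences in expressed transcripts that were listed as sites (%, log axis) against the number of letters shared with the 3′ adapter without a break (points with 95% Wilson intervals, in blue with G before the A as in the adapter and in red with another base; the last blue point holds runs of 10 letters or more). With G the share is 0.0480% at 4 letters and 8.38% at 6. The red points lie lower and rise from 0.0110% at 3 letters to 0.370% at 7. The 2 red classes with 0 of 215 and 0 of 147 listed are not drawn.

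The base before GAUCGG also went with the listed share. It was 26.5% (23.0 to 30.3) after C, the base that precedes GAUC in the 5′ adapter, and 10.6% (9.01 to 12.5) after A, the base that precedes it in the 3′ adapter. After U it was 11.7% (10.1 to 13.4) and after G 3.91% (2.86 to 5.32). GACGAUC, the last 7 letters of the 5′ adapter, was listed in 16 of its 35 occurrences with GG after it (45.7%, 30.5 to 61.8). Without the GG, it was listed in 4 of 986 occurrences (0.406%, 0.158 to 1.04). The listed share thus rose with the letters shared with the 3′ adapter up to GAUCGGA and not beyond, and for GAUCGG with 5′ adapter letters it was 9.25% at 4 letters, 26.0% at 5 and 21.1% at 6. The part of the adapter sequence in the calls was not tested.

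At the listed GAΨCGG sites the shared run was short: 287 of 509 (56.4%) shared at least 7 letters from the G on, 67 (13.2%) at least 8, 13 at least 9 and none 12 or more. The called fraction did not rise with the length of the run. Over the calls in the transcripts searched, its median was 0.105 at exactly 6 letters, 0.101 at 7, 0.0979 at 8 and 0.0805 at 9, and 0.139 at the 5 sites with 10 or more.

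The 2 sets differed in fraction. As this was a reason to keep them apart, the values below describe the difference and do not test it. Over all calls, the median fraction of AΨC sites was 0.122 (1578 site and tissue pairs), below the 0.163 of all nuclear sites. It was 0.104 for the GAΨCGG sites (1091 pairs, quartiles 0.0716 and 0.148) and 0.318 for the other AΨC sites (487 pairs, quartiles 0.106 and 0.662). Fractions below 0.2 made up 91.6% (89.8 to 93.1) of the GAΨCGG calls and 60.7% of all nuclear calls. Only 4 of 1091 GAΨCGG calls exceeded 0.5. They were AT3G51350 in seedling (0.647), AT3G05170 in cauline leaf (0.599), AT5G21070 in shoot (0.647) and a site outside annotated genes in shoot (0.673).

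The medians of the GAΨCGG sites hardly moved between tissues, from 0.0921 in stem to 0.118 in flower. Those of the other AΨC sites ranged from 0.143 in rosetta leaf to 0.516 in shoot and 0.637 in seed. In seed, the upper quartile of the other AΨC sites was 0.870 and that of the GAΨCGG sites 0.140. Sites called in each tissue are partly different sites. These medians thus describe the calls of a tissue and not the change of a fixed set. Of the 52 other AΨC sites called in seed, 37 lay in genes of the expression table, beside 30 of 31 in rosetta leaf and 37 of 55 in shoot. Those called in seed included every AΨC site of AT2G01010, AT3G41768 and AT3G06365 in the rRNA gene arrays (below), at 0.631 to 1.000. Their part in the seed values was not tested.

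**Figure D2:**
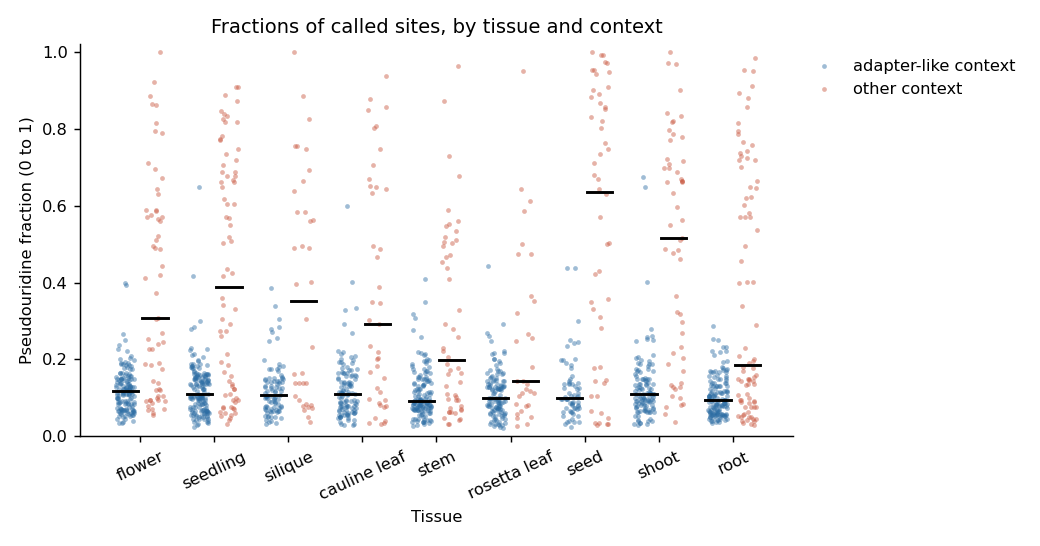
Ψ fraction (0 to 1) of every called AΨC site by tissue, in blue for the 509 GAΨCGG sites (adapter-like context) and in red for the 232 others, with black lines at the medians. The blue points lie mostly below 0.2 in every tissue, with medians of 0.0921 to 0.118, and the red points spread over the whole range.

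Called AΨC sites were counted against all nuclear sites with a value in the same tissue. In root, 228 AΨC sites were called (31.2%, 27.9 to 34.6), beside 32.5% of all nuclear sites. In seedling there were 231 (31.4%, 28.1 to 34.8), beside 26.0%. The background share was 29.4% in flower, where 208 AΨC sites were called (28.1%), 23.9% in stem (192 sites, 26.1%) and 22.2% in shoot (170 sites, 23.0%). It was 18.7% in cauline leaf (154 sites, 21.0%), 19.9% in rosetta leaf (152 sites, 20.8%), 19.5% in silique (127 sites, 17.3%) and 19.4% in seed (116 sites, 16.4%). The interval of the AΨC share lay above the background share in seedling and just below it in seed (13.8 to 19.3), and it included that share in the other 7 tissues.

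Within seed, both sets went apart. Of the GAΨCGG sites with a value there, 64 were called (13.1%, 10.4 to 16.4), and of the other AΨC sites 52 (23.7%, 18.6 to 29.8). These 52 include the sites of the rRNA gene arrays named above. In rosetta leaf the order was turned, with 121 GAΨCGG sites (24.1%, 20.6 to 28.0) and 31 others (13.5%, 9.70 to 18.6).

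Most AΨC sites were called in few tissues. At least 1 call was made for 715 of the 741 (96.5%), beside 97.5% of all nuclear sites, and 26 were listed without a call. A single tissue called 407 (54.9%, 51.3 to 58.5), beside 58.6% of all nuclear sites. Calls in 3 or more tissues were made for 27.3% (24.2 to 30.6) of the AΨC and 24.0% of all nuclear sites. All 9 tissues called 3 AΨC sites (0.405%, 0.138 to 1.18), beside 1.28% of all nuclear sites. The 2 sets hardly differed here, since 55.0% of the GAΨCGG sites were called in exactly 1 tissue and 27.1% in 3 or more.

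**Figure D3:**
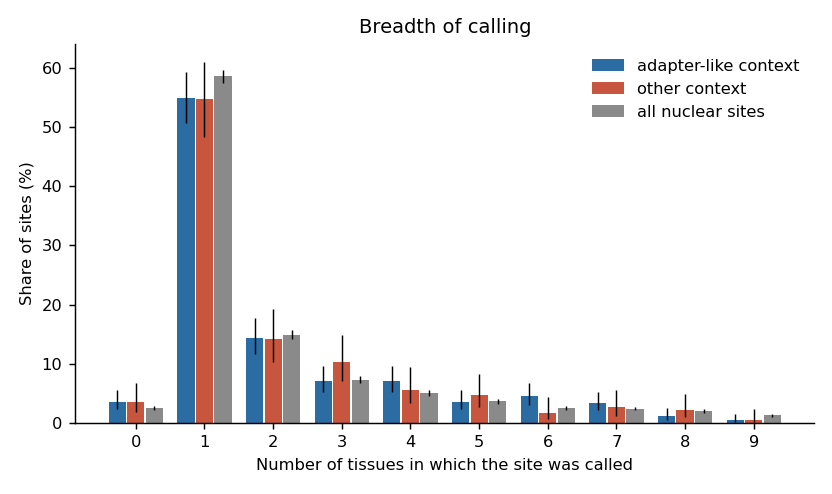
Share of sites (%) by the number of tissues in which they were called, for the GAΨCGG sites (blue), the other AΨC sites (red) and all nuclear sites (grey), with 95% Wilson intervals. In each of the 3 groups the largest bar is at 1 tissue, at 55.0% for the GAΨCGG sites and 58.6% for all nuclear sites.

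Of the 3 sites called in every tissue, UBC1 and UBQ5 lie in genes of the ubiquitin system. UBC1 (AT1G14400) encodes a ubiquitin carrier protein, an enzyme that hands ubiquitin on to ligases, and its GAΨCGG site lies in the 5′-UTR. The fraction was 0.227 in flower, 0.179 in seedling, 0.103 in silique, 0.199 in cauline leaf, 0.196 in stem, 0.164 in rosetta leaf, 0.202 in seed, 0.103 in shoot and 0.156 in root. Silique and shoot were lowest and flower highest.

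UBQ5 (AT3G62250) encodes ubiquitin fused to a ribosomal protein. Its site lies in the CDS and reads GAΨCGC, so that it shares 5 letters with the 3′ adapter. Its fraction was lowest in shoot (0.101) and highest in cauline leaf (0.203), with a mean of 0.159. The third site, a GAΨCGG site in the CDS of AT4G09830 (a nuclear receptor family 2 group C protein by its annotation), ranged from 0.0697 in root to 0.154 in seedling. Without an error between libraries, none of these differences between tissues could be tested.

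Another 11 sites were called in 8 tissues. They included BIP1 (AT5G28540), an Hsp70 chaperone of the endoplasmic reticulum, VAP27-1 (AT3G60600), a membrane protein at contact sites of the endoplasmic reticulum, and 2 sites of AT4G16450, a NADH-ubiquinone oxidoreductase subunit. At BIP1 the 8 called tissues lay between 0.105 in silique and 0.194 in cauline leaf. Seed, which was not called, was listed at 0.470. The window of this site occurs 2 times in the genome, so that its reads cannot be assigned to BIP1 alone. The VAP27-1 site lay between 0.0839 in shoot and 0.161 in seedling, and its uncalled value in seed was 0.0471.

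Where a GAΨCGG site was called in 5 or more tissues (66 sites), its fraction was low and even. The mean over the called tissues had a median of 0.0999 and a highest value of 0.206, and the gap between the highest and the lowest called tissue had a median of 0.0577. The 27 other AΨC sites with as many calls had a median of 0.299 and reached 0.959.

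The highest of these means, 0.206, belonged to VPS25 (AT4G19003), a subunit of the ESCRT-II complex that sorts membrane proteins for degradation. Its GAΨCGG site in the CDS stood at 0.438 in seed and between 0.148 and 0.194 in the other 6 called tissues. Wide ranges between called tissues were also seen at TMT1 (AT1G20840), a sugar transporter of the vacuole membrane, with 0.443 in rosetta leaf against 0.110 to 0.137 in the other 4 called tissues. SERAT1;1 (AT5G56760), a serine acetyltransferase of cysteine synthesis, stood at 0.438 in seed, 0.259 in stem and 0.167 in root. cICDH (AT1G65930), the cytosolic isocitrate dehydrogenase, ranged from 0.155 in root to 0.401 in cauline leaf at a site in its 5′-UTR. In each of these 4 genes, the called tissue with the highest fraction was the one with the lowest gene level. VPS25 and SERAT1;1 were lowest in seed, at 8.67 TPM and 40.4 TPM, and TMT1 stood at 12.7 TPM in rosetta leaf against 38.5 to 168 TPM in the other 4 called tissues. cICDH stood at 313 TPM in cauline leaf against 330 to 607 TPM in the other 3 called tissues. The part of the gene level, and of the read depth that goes with it, was not tested.

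FAD2 (AT3G12120), which introduces the second double bond into the fatty acids of membrane and seed lipids, carried the site with the smallest range (0.0629) among the AΨC sites called in 5 or more tissues at a mean above 0.4. It was picked after its values had been seen. The site lies in the second position of an isoleucine codon followed by proline and shares only AUC with the adapter. Its fraction was 0.520 in flower, 0.507 in seedling, 0.490 in silique, 0.513 in cauline leaf, 0.502 in stem, 0.501 in rosetta leaf, 0.479 in seed, 0.485 in shoot and 0.457 in root. It was called in 7 of these tissues, and the values in cauline leaf and seed, where it was not called, lay within the range of the others.

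**Figure D4:**
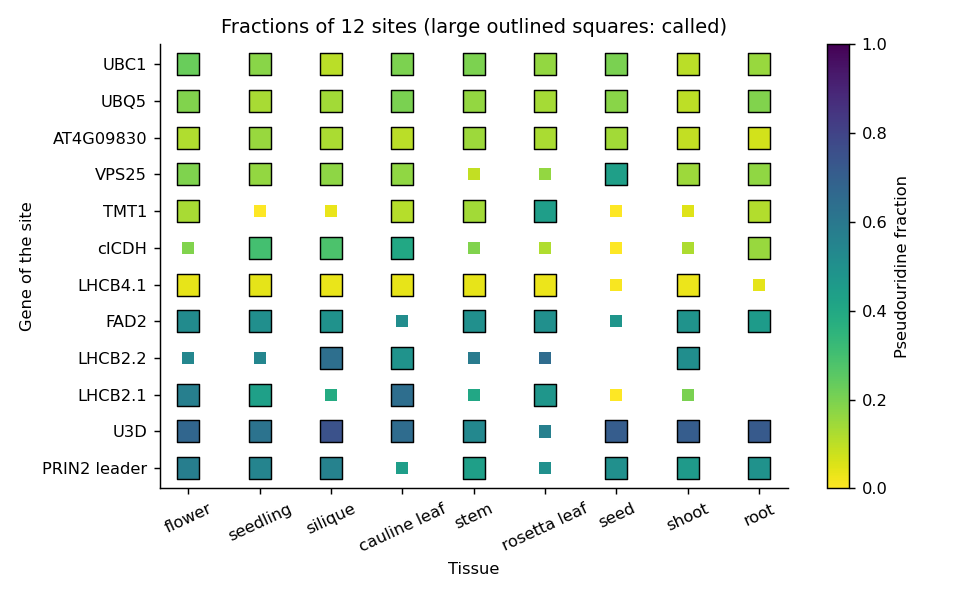
Ψ fraction of 12 AΨC sites (rows, named by gene) in 9 tissues (columns), as colour from 0 to 1, with large outlined squares for called and small squares for uncalled values and no square where no value was listed. PRIN2 leader is the 5′-UTR site of PRIN2. The first 7 rows are sites of low fraction with GAUCG in their sequence and the last 5 are sites at about 0.4 to 0.8 in most tissues, among which FAD2 stays between 0.457 and 0.520.

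By place in the gene, the AΨC sites resembled the other nuclear sites in their share of CDS sites but not in codon position. Protein-coding genes held 691 of the 741 (93.3%, 91.2 to 94.8). Of the 670 exonic sites in them, 85.4% (82.5 to 87.8) lay in the CDS, beside 85.8% of all nuclear sites. The 5′-UTR held 8.51% (6.62 to 10.9), beside 4.64%, and the 3′-UTR 6.12% (4.54 to 8.20), beside 9.59%. Set against the sequence itself, the direction for the 5′-UTR was the opposite. GAUCGG in the expressed transcripts lay in the 5′-UTR in 13.5% (12.5 to 14.5) of its occurrences, against 8.45% (6.31 to 11.2) of the exonic GAΨCGG sites in genes of any level. A gene on the opposite strand overlapped 26 of the sites.

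In the CDS, the Ψ was the second base of its codon at 291 of 572 sites (50.9%, 46.8 to 55.0), beside 26.4% of all nuclear CDS sites. This position makes AΨC an isoleucine codon. At 187 sites (32.7%) it was the third base and at 94 (16.4%) the first. Without the GAΨCGG sites the share at the second position was 40.3% (32.6 to 48.4), in genes of any level. This interval includes the 33.2% of the other AUC sequences in the CDS of the expressed transcripts.

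For GAΨCGG, the reading frame fixes the neighbouring amino acids. At the second position, isoleucine is followed by glycine (233 of 428 sites, 54.4%, 49.7 to 59.1), and at the third, aspartate by arginine (138 sites, 32.2%). At the first position the codon is serine (57 sites, 13.3%, 10.4 to 16.9). All GAUCGG sequences in the CDS of the expressed transcripts, listed or not, divided in the same order, with 44.4% (42.7 to 46.1) at the second, 34.7% at the third and 20.9% at the first position. The listed sites thus had a higher share at the second position and a lower share at the first than the sequence itself, with intervals that do not overlap. The 428 sites lie in genes of any level, while the sequences counted come from genes of at least 10 TPM and include listed sites. The part of this unlike choice of genes was not tested.

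The genes of these sites were well expressed. The median gene level was 71.1 TPM (mean over the tissues) for the 471 genes with a GAΨCGG site found in the expression table and 89.0 TPM for the 198 with another AΨC site, beside 46.9 TPM for all genes with a nuclear site. Called fractions were lower where the gene level was higher. For GAΨCGG sites the median was 0.192 in tissues where the gene stood below 30 TPM (97 calls) and 0.140 from 30 to 100 TPM (321 calls). It was 0.0966 from 100 to 300 TPM (352 calls) and 0.0609 from 300 TPM on (313 calls). For the other AΨC sites the same ranges gave 0.689 (94 calls), 0.246 (80 calls), 0.128 (107 calls) and 0.0977 (122 calls).

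The lowest called fraction of the GAΨCGG sites fell in the same way, from 0.0598 below 30 TPM to 0.0230 from 300 TPM on. Across the called GAΨCGG sites of a tissue, the rank correlation of fraction and TPM lay between -0.85 in seed and -0.67 in root (64 sites and 142 sites). It lay between -0.74 and -0.54 over all nuclear sites. These are descriptions across sites that share their libraries. The level of a gene goes with the number of reads over its sites, and the part of read depth in this relation was not tested.

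**Figure D5:**
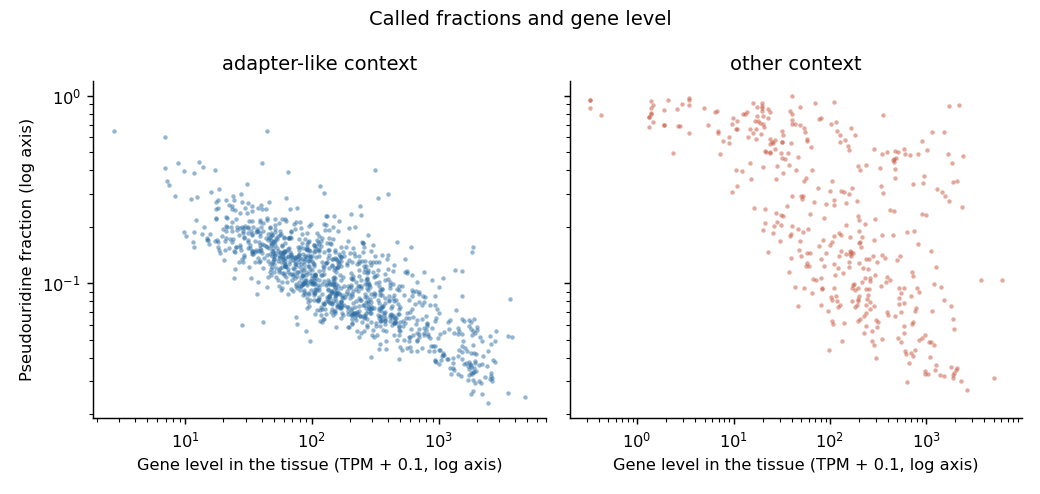
Ψ fraction (log axis) of each called AΨC site and tissue against the level of its gene in that tissue (TPM + 0.1, log axis), for the GAΨCGG sites on the left and the others on the right, with separate level axes. On the left the median falls from 0.192 below 30 TPM to 0.0609 from 300 TPM on. On the right it falls from 0.689 to 0.0977 over the same ranges, and many sites lie far above the band of the left.

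Genes of photosynthesis were more frequent among the genes with an AΨC site than among the expressed genes. Photosystem and chlorophyll-binding proteins were 17 of the 633 protein-coding genes with an AΨC site and a TPM value (2.69%, 1.68 to 4.26), beside 67 of the 13881 expressed genes (0.483%) and 47 of the 5166 with any nuclear site (0.910%). Their 14 GAΨCGG sites had a median called fraction of 0.0375 and their 12 other AΨC sites one of 0.255. The level of these genes exceeds that of most genes, and its part in the number of sites was not tested. LHCB4.1 (AT5G01530), an antenna protein of photosystem II, had 4 AΨC sites, 2 of them GAΨCGG. At the first of these, Ψ fractions lay between 0.0301 and 0.0399 in the 6 called tissues, and at the last between 0.0302 and 0.0423 in the 7 called tissues. Its site at chr5:209899-209899 gave 0.0269 to 0.0365 in 5 called tissues, and the site at chr5:209951-209951 was listed without a call.

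LHCA2 (AT3G61470), an antenna protein of photosystem I, had 3 sites. The means over the called tissues were 0.0414 and 0.0262 at the GAΨCGG sites and 0.0706 at a GAΨCC site. In seed all 3 were listed at 0. PSAE-1 (AT4G28750), a subunit of the photosystem I reaction centre, differed from them, with 0.233 in silique to 0.374 in flower over 7 called tissues at a GAΨCC site. Seed and root were listed at 0 there.

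In most other gene groups the share of genes with an AΨC site lay near that of the expressed genes. Protein kinases were 4.74% of the genes (3.34 to 6.69) beside 5.22% of the expressed genes, transcription factors 4.11% beside 4.27%, ribosomal proteins 2.84% beside 2.17%, and ubiquitin system genes 2.21% beside 2.14%. Histone and chromatin genes were 1 of 633 genes (0.158%, 0.0279 to 0.889). This interval includes the 0.706% of the expressed genes and the 0.407% of the genes with any nuclear site. None of the 633 genes encoded a pentatricopeptide repeat protein, which allows a share of up to 0.603%, beside 69 of the expressed genes (0.497%).

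Of the 656 genes, 57 (8.69%) had 2 or more AΨC sites and 8 had 3 or more. Beside LHCB4.1 and LHCA2, these were AT3G14067, AT3G56360, AT2G01008, AT2G01010, AT3G41768 and AT3G06365. The 3 sites of AT3G14067, a subtilase, all read GAΨCGG in frame for isoleucine and glycine, with means over the called tissues of 0.0544, 0.0943 and 0.0939. AT3G56360, of unknown function, had 1 site called in 5 tissues at a mean of 0.0752 and 2 sites listed without a call.

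The other AΨC sites, though fewer, held nearly all the high fractions and the non-coding RNAs. Both were reasons to keep the sets apart, so that the counts describe these differences and do not test them. By annotation, the other AΨC sites included all 7 sites in rRNA genes, all 4 in tRNA genes, both in snRNA and both in snoRNA genes, and 16 of the 18 outside annotated genes. Their share was 3.02% (1.47 to 6.10) in rRNA genes, beside 0.544% of all nuclear sites, and 6.90% (4.29 to 10.9) outside annotated genes, beside 1.47%. In tRNA (1.72%, beside 1.11%), snRNA (0.862%, beside 0.544%) and snoRNA genes (0.862%, beside 0.459%) the intervals include the share of all nuclear sites. Many lie in repeated sequence. The 31-base window around the site occurred more than once in the genome for 42 of the 232 (18.1%, 13.7 to 23.6) against 8 of the 509 GAΨCGG sites (1.57%, 0.799 to 3.07). Among the other AΨC sites in protein-coding genes it did so for 7 of 188 (3.72%, 1.82 to 7.48). Reads of such copies cannot be assigned to 1 of them, and the values of these sites are uncertain as to the copy. A copy in an organelle genome was found for 3 of the other AΨC sites and 1 of the GAΨCGG sites.

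The largest family, 12 sites, shared the 11 bases tctATCgggtt and lay near the rRNA gene arrays of chromosomes 2 and 3, in part within AT2G01008, annotated as a maternal effect embryo arrest protein. Called fractions ran from 0.471 to 0.992 with a median of 0.720 over 39 calls. The window of AT2G01008 shown above occurs 6 times in the genome. Its fraction was 0.770 in seedling, 0.495 in stem, 0.697 in shoot and 0.785 in root, and its uncalled value in seed was 0.903. The gene itself averaged 2.28 TPM.

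The sequence of U3, the small nucleolar RNA that acts in the first cleavages of the rRNA precursor, gave the second family, with 7 sites of the sequence aggATCtgttc. Their 49 called fractions lay between 0.438 and 0.770, with a median of 0.618. At U3D (AT5G54075), 8 tissues were called, from 0.533 in stem to 0.748 in silique. Rosetta leaf was listed at 0.567. The same window lies in the annotated 5′-UTR of PRIN2 (AT1G10522), where the called tissues gave 0.438 to 0.575. As the windows are identical, the PRIN2 site and the U3 genes cannot be told apart.

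U2, the spliceosomal RNA that pairs with the branch point of introns, gave the third family, with 5 sites sharing aatATCtgata. It held 2 annotated U2 genes, U2.1 and U2.4, each called in 1 tissue at a mean of 0.872. It also held sites in the annotated 5′-UTRs of AT2G20410 and AT1G09800, which had the highest means of all protein-coding AΨC sites with 3 or more calls (0.805 and 0.704). Their window occurs 14 times in the genome. AT1G09800 is annotated as a member of the pseudouridine synthase family, and its site, in sequence shared with U2 genes, gave 0.623 in root to 0.756 in silique over 5 called tissues.

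The third highest of these means was that of the AT2G01008 site above. Next came AT3G02120, a hydroxyproline-rich glycoprotein family gene, with 0.569 in flower, 0.660 in seedling and 0.569 in root. Its sequence reads AAΨCGGAA and shares 7 letters with the 3′ adapter but not the G before them. The fifth was LHCB2.2, described below.

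In the 18S rRNA genes, AT2G01010 carried 4 AΨC sites and AT3G41768 carried 3 of the same windows, each present 2 times in the genome. Means over the called tissues ran from 0.795 to 0.952 in the first gene and from 0.753 to 0.918 in the second. The site at chr2:4798-4798 gave 0.936 in cauline leaf, 0.970 in seed and 0.951 in root. Outside the called tissues values were scattered, with 0 in stem and 1.00 in seedling at this site. The RNA was selected for poly(A) tails, and the number of rRNA reads behind these values is unknown.

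The highest fractions of all belonged to RNAs of the same arrays, annotated as uncharacterized, and to a tRNA gene. Whether these uncharacterized RNAs are part of the rRNA was not examined. AT3G06365 had 3 sites, the last at 1.00 in flower, silique and shoot and 1.000 in seed. AT2G00340 gave 0.909 in seedling to 0.984 in root over 5 called tissues. A site of the tRNA-Cys gene AT2G07763 gave 0.991 in seed, its only called tissue. Its window occurs 2 times in the genome, so that its reads cannot be assigned to this gene alone.

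Of the other AΨC sites in mRNA with a unique window, TCTP (AT3G16640), a conserved growth regulator, had the highest mean fraction among those called in 2 or more tissues, with 0.885 in flower and 0.887 in seedling. It too was picked after its values had been seen. Its uncalled values were 0.833 in silique, 0.742 in stem, 0.635 in shoot, 0.452 in root and 0 in cauline leaf, rosetta leaf and seed.

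LHCB2.1 and LHCB2.2, paralogous antenna proteins of photosystem II, both carried an intronic site in the sequence taATCaccaaat. LHCB2.2 (AT2G05070) gave 0.639 in silique, 0.488 in cauline leaf and 0.511 in shoot, and between 0.538 and 0.649 in the 4 tissues with an uncalled value. LHCB2.1 (AT2G05100) gave 0.571 in flower, 0.435 in seedling, 0.643 in cauline leaf and 0.475 in rosetta leaf. Both genes are highly expressed, at 1238 and 1179 TPM on average.

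Introns held 21 AΨC sites (3.04% of those in protein-coding genes), beside 8.24% of all nuclear sites in such genes. Of the 21, 6 lay exactly 4 bases before an annotated exon (28.6%, 13.8 to 50.0). The AG of the intron end stood directly after their C. Over all 639 intronic sites, 18 lay at that distance (2.82%, 1.79 to 4.41), and these include the 6. AΨC sites were chosen for a C after the U, while the 639 also hold sites with other bases there. The part of that choice in the difference was not tested. The 6 were in FP3, AT1G60070, ACP4, BGLU15, TIM10 and RS2Z32, each called in 1 tissue at 0.580 to 0.922. ACP4, an acyl carrier protein of fatty acid synthesis, was called in flower (0.788) and listed at 0.679 to 0.864 in 6 further tissues. RS2Z32, an SR-type splicing factor, was called in flower (0.922) and listed at 0.801 to 0.979 in 5 tissues and at 0 in 3. A gap at such a place lies next to the splice junction, and the part of read alignment across the junction in these values was not tested.

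The sites called in a single tissue were set beside the expression of their genes. They numbered 91 in root, 57 in seed, 54 in flower, 53 in seedling, 35 in shoot, 33 each in cauline leaf and stem, 29 in rosetta leaf and 22 in silique. The calling tissue also had the highest fraction for 231 of the 407 (56.8%, 51.9 to 61.5), beside 55.0% of all nuclear sites called once. For 176 (43.7%) of the 403 with a gene in the expression table it also had the highest TPM of the gene, beside 44.5% of all nuclear sites called once.

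Gene levels in the calling tissue were tested with limma on log2(TPM + 1) against the mean of the other 8 tissues on that scale. Rosetta leaf and seed have 1 TPM column each, so that their tests take the spread from the tissues with 2 columns and assume that the lone column varies like those. The gene was higher in the calling tissue for 336 of 403 sites (83.4%, 79.4 to 86.7) and lower for 29 (7.20%) at a Benjamini-Hochberg adjusted p under 0.05. Over all 4733 nuclear sites called once the shares were 81.4% (80.3 to 82.5) and 9.85%, which lie within the intervals of the AΨC sites. Means on the log scale give weight to low tissues. For 23 of the 336 sites the gene stood below the mean TPM of the other 8 tissues, and for 313 above it. The share of sites with a higher gene was 81.0% (76.0 to 85.2) for the GAΨCGG sites and 88.7% (81.9 to 93.2) for the others.

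The share exceeded that of all 25076 genes tested in each of the 9 tissues. Among the sites, a gene was counted once for each of its sites called only in that tissue. In root 82 of 91 genes were higher (90.1%, 82.3 to 94.7), beside 51.4% of all genes, and in seed 53 of 56 (94.6%, 85.4 to 98.2), beside 23.0%. The background was 47.9% in flower (45 of 54 sites higher), 39.9% in seedling (37 of 52), 42.7% in silique (17 of 22), 33.2% in cauline leaf (30 of 33), 33.0% in stem (24 of 32), 21.1% in rosetta leaf (23 of 29) and 50.4% in shoot (25 of 34). All nuclear sites called only in the same tissue gave shares close to those of the AΨC sites. They gave 87.0% in root and 88.8% in seed. In flower they gave 80.1% (AΨC 83.3%), in seedling 73.6% (71.2%), in silique 79.1% (77.3%), in cauline leaf 79.1% (90.9%), in stem 76.6% (24 of 32), in rosetta leaf 73.5% (79.3%) and in shoot 80.6% (73.5%). Each of these 9 shares lay within the interval of the AΨC sites of that tissue. Genes with a listed site are better expressed than the rest, and more reads over a site make a call easier to reach. Their part in this count was not tested.

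For each tissue, 1 site called only there is described by its gap to the highest fraction elsewhere. The widest gap was in root, at a 5′-UTR site of AT3G02290, a RING/U-box protein, with 0.815 in root, 0.245 in shoot and 0 in the other 7 tissues. The gene was not called as different in root (log2 difference 0.07, SE 0.06, limma adjusted p 0.270). In rosetta leaf the site of NDT2 (AT1G25380), an NAD transporter, gave 0.586 against 0.154 or less, with the gene tested on 1 column (log2 difference -0.19, SE 0.12, limma adjusted p 0.165). In flower the site of DND1 (AT5G15410), a cyclic nucleotide-gated channel, gave 0.642 against 0.232 or less. DND1 was at 54.4 TPM in flower against a mean of 89.6 TPM in the other 8 tissues, and its positive log2 difference (0.18, SE 0.06, limma adjusted p 0.0192) goes with low levels in seed (2.16 TPM) and root (4.52 TPM). In shoot, AT3G16940, a calmodulin-binding transcription activator, gave 0.662, with 0.363 in rosetta leaf and 0 in the other 7, while its gene was lower in shoot (log2 difference -0.62, SE 0.04, limma adjusted p 5.1e-07).

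In seed, AT3G26560, an RNA helicase, gave 0.429 against 0.117 or less, and the gene was higher in seed, with 37.7 TPM in the single column against a mean of 24.7 TPM elsewhere (log2 difference 0.61, SE 0.06, limma adjusted p 5.5e-06). The 3 GAΨCGG sites among these were AT3G05170 in cauline leaf (0.599 against 0.215 or less), AT3G57570 in silique (0.386 against 0.251) and BIK1 (AT2G39660), a kinase of immune signalling, in stem (0.318 against 0.0798). TLP3 (AT2G47900) gave 0.194 in seedling and 0.0511 or less elsewhere. Its level was 46.9 TPM in seedling against a mean of 43.3 TPM elsewhere (log2 difference 0.17, SE 0.05, limma adjusted p 0.0142). It was higher still in root (67.6 TPM), shoot (55.8 TPM) and flower (54.0 TPM). Of the 9 genes, limma called TLP3 and AT3G26560 higher in the calling tissue and AT3G16940 lower. DND1 was called higher on the log scale only, and 5 were called neither.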

How the data were processed

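Ψ fractions had been deposited as 1 fraction per site and tissue. The authors mapped the reads to TAIR10, combined the replicates of a tissue, calibrated the share of gapped reads to the fraction and applied a P value-based filter whose threshold is not given in the sources used here. The deposited yes or no mark of that filter (an indicator, not a measurement) defined a call. Gene levels had been deposited by the authors as TPM, in 16 columns, 2 per tissue and 1 for rosetta leaf and seed, with the tool and annotation not given in the sources used here. The column names do not say from which libraries they came. Their number equals that of the input libraries. The 2 columns of a tissue may be technical repeats, so that p-values measure only the spread between these columns.

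Sites were joined by position and strand to RefSeq TAIR10.1, in which the stated motif was found at 100% of the nuclear sites, and placed on the transcript with the longest CDS. The adapters were copied from the library protocol in the sample labels. Copies were counted over windows of 31 bases on both strands of the whole genome. Shares have Wilson intervals (95%) that cover counting error only. Expression was tested with limma 3.58.1 in R 4.3.3 on log2(TPM + 1) over genes with at least 1 TPM in at least 2 columns, each tissue against the mean of the other 8, with Benjamini-Hochberg adjustment over all genes at 0.05 and no replicate block. The fit was tested on simulated data. The named sites were those called in all 9 tissues, the 5 with the highest mean and the 5 with the widest range among protein-coding sites called in 3 or more tissues, 1 per tissue with the widest gap among protein-coding sites called only there and with a value in all tissues, genes with 3 or more sites, and the 3 highest sites outside protein-coding genes. Exceptions are marked in the text. Alternatives changed the minimum fraction, the gene class, the transcript model, the tissues, the TPM filter and pseudocount, the block and the replicates. The members, lists and tests were chosen with earlier results of these data known.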

Additional observations from a re-analysis of the deposited data

How the results depend on the processing

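Of 53 alternative settings, 35 left the value within 1.5 times a count or within the interval of a share or median, and 18 moved it. With a minimum fraction of 0.1, 467 sites were called in at least 1 tissue, 269 in exactly 1, and 193 sites called once had a gene higher in that tissue, with 79.4% G before and 79.2% G after the motif. Sites in protein-coding genes alone gave a median called fraction of 0.112, and G at 89.9% before and 86.3% after the motif. The median was 0.0756 over all fractions above 0, and the mean was 0.204. Counting calls in at least 8 tissues instead of 9 gave 14 sites. The next 2 settings were chosen after seeing the data. Without the GAΨCGG sites, 224 sites were called in at least 1 tissue, 127 in exactly 1 and 1 in all 9, the median was 0.318, 40.3% of CDS sites were at the second codon position and 110 sites called once had a gene higher there. Sites whose window occurs once gave a median of 0.111. The fit with the replicate block gave 336 sites with a higher gene, as without it. Between the tissues with 2 columns, deviations of same-numbered columns correlated between -0.08 and 0.09 across genes. No shift shared over the genes was thus seen, but a common preparation that touches few genes would not show in this value. Asking that the gene also lie above the mean TPM of the other tissues, chosen after seeing the data, gave 313. Leaving out 1 replicate column at a time gave 332 to 337.

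Limits: the fractions are pooled per tissue, so that differences between tissues have no error and no test, and the depth behind them is unknown. Uncalled fractions can rest on few reads. Copies of rRNA, U2 and U3 genes and of other repeated windows, some of them in organelle genomes, cannot be told apart. The GAΨCGG set shares its 6 letters with the 3′ adapter and GAUC with the end of the 5′ adapter, whose part was not tested.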
